A study of Homo sapiens with 16 samples.

Results

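The regions described here are stretches of open chromatin that appeared in the peak lists after 24 h of ACBI-1 in 2 human T-cell acute lymphoblastic leukaemia lines, DND41 and MOLT4. A region was taken as gained when, in at least 1 line, it had a peak in both 24 h ACBI-1 libraries and in neither 24 h DMSO library. By this rule 1933 of 131357 regions (1.47%) were members, 1054 of them in DND41 and 916 in MOLT4, with 37 gained in both lines. Because presence and absence at 24 h chose them, those values are a description, and tests were made only in libraries that took no part in choosing a set.

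Accessibility was read by ATAC-seq, an assay that uses a transposase to tag open DNA for sequencing. There were 16 libraries in 8 groups of 2: DND41 with DMSO (the vehicle) or 100 nM ACBI-1 for 3 h, the same 2 treatments for 24 h, and the same 4 conditions in MOLT4. Both lines are established cultures, and the labels do not say whether paired libraries are independent cultures. The spread behind each p-value may therefore be technical. Lists held 26145 to 46712 peaks on chromosomes 1 to 22 and X, as positions without heights or read totals. Read depth is therefore unknown, and absence of a peak means only that none was called. For 8 of 16 libraries the labels' cell line entry disagreed with the title. The line code in the peak names and the library sharing most regions matched the sample title in all 16, so titles were used. No gene was assigned to a region on this build, so T-cell marker genes were not checked. Peak names carried the tag p03 at 24 h and p04 at 3 h, and what differs with this tag cannot be told apart from time.

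ACBI-1 is a PROTAC, a bifunctional molecule that brings a target to a ubiquitin ligase for degradation. Its targets are SMARCA2 and SMARCA4, the ATPases of SWI/SNF complexes, and PBRM1, a subunit of one form of the complex. SWI/SNF complexes slide and evict nucleosomes and keep many enhancers open, so their removal is known mainly for closing sites. Gained accessibility is the minority direction and is described here on its own.

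At 24 h far fewer regions were gained than lost. The 24 h DMSO lists were also longer, at 39117 to 46712 peaks against 28751 to 33870 with ACBI-1. The part of list length in these counts was not tested. Gained regions made up 1.37% of the 77211 regions with a peak in at least 1 of the 4 DND41 libraries and 1.47% of the 62520 in MOLT4. For comparison, 3 further classes were taken from the same 4 libraries of a line. Lost regions, with the reverse pattern, numbered 7860 in DND41 (10.2%) and 8382 in MOLT4 (13.4%), and kept regions, with a peak in all 4 libraries, numbered 17355 and 17844. Split regions had a peak in 1 DMSO and 1 ACBI-1 library. They were called in as many libraries as gained regions, evenly over the arms, and numbered 3212 in DND41 and 2466 in MOLT4.

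Just outside the rule lay regions with a peak in both ACBI-1 libraries and in 1 DMSO library, 1469 in DND41 and 1275 in MOLT4. Another 17190 and 14647 had a peak in 1 ACBI-1 library and in no DMSO library. The median ACBI-1 peak in DND41 was 295 bp for the first kind, 270 bp for the gained regions and 213 bp for the second kind. In MOLT4 these medians were 287, 262 and 206 bp. Gained regions thus sat between the neighbouring classes in width in both lines.

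Gained regions carried narrow peaks. In DND41 ACBI-1 replicate 1 the members' median peak was 268 bp, against 347 bp for the whole list, and in replicate 2 it was 274 bp against 361 bp. In MOLT4 ACBI-1 replicate 1 it was 266 bp against 357 bp, and in replicate 2 it was 255 bp against 399 bp. The members' median fell at the 34.3, 33.8, 34.9 and 28.8 percentile of these lists, in the same order. The shortest member peak was as short as the shortest peak of its list in all 4 libraries, at 168, 170, 161 and 159 bp. Of the members, 20.9% in either DND41 list, and 21.1% and 10.8% in the MOLT4 lists, were wider than the list median. For split regions these shares were close, at 17.3% in either DND41 list and 19.6% and 8.84% in the MOLT4 lists. Kept regions were far wider, with median ACBI-1 peaks of 595 bp in DND41 and 622 bp in MOLT4. Split regions were close to the gained ones, at 261 and 256.5 bp, and lost regions had DMSO peaks of 331 and 341 bp. As merged over all libraries, members spanned 176 to 1594 bp, with a median of 451 bp.

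**Figure D1:**
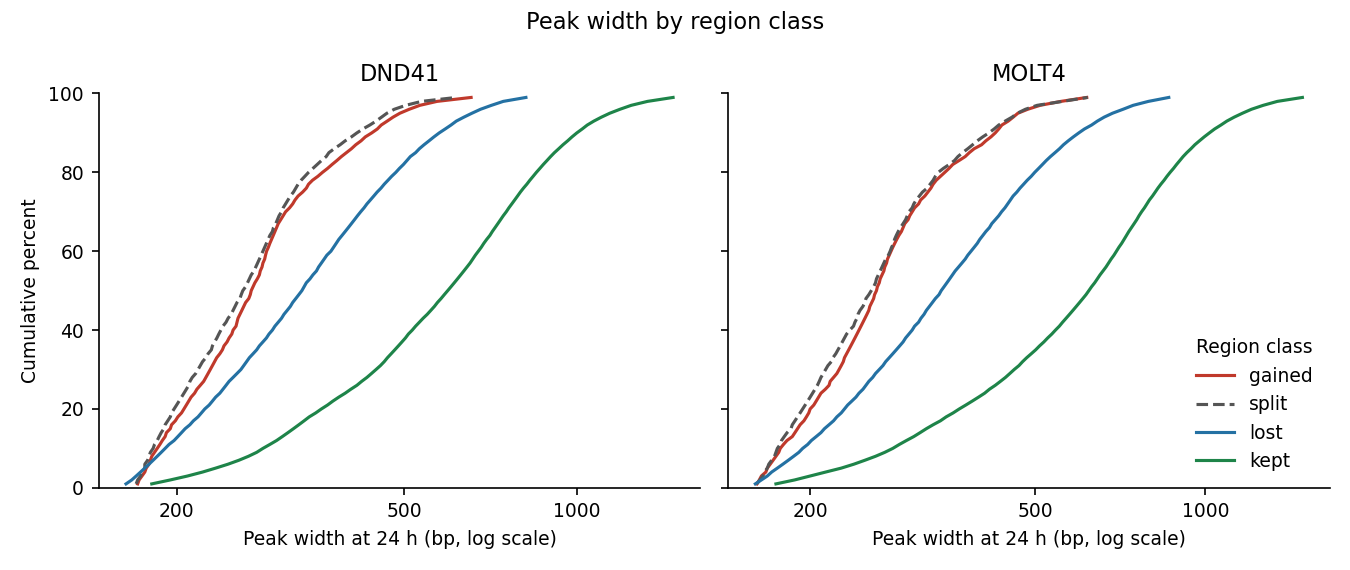
Cumulative percent of 24 h peaks (y axis) by peak width in bp (x axis, log scale) for gained, split, lost and kept regions of DND41 and MOLT4, from the 1st to the 99th percentile; lost regions are measured in DMSO and the others in ACBI-1 libraries. The gained and split curves run close together, with medians of 270 and 261 bp in DND41, left of the kept curve at 595 bp.

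Many regions gained at 24 h were already called at 3 h, and, as among split regions, more of them with DMSO than with ACBI-1. Of the 1054 DND41-gained regions, 420 (39.8%) had no peak in any 3 h library of that line. A peak was found in at least 1 of the 3 h DMSO libraries at 532 of them (50.5%) and in at least 1 of the 3 h ACBI-1 libraries at 410 (38.9%). Of the 916 MOLT4-gained regions, 366 (40.0%) had no 3 h peak, 425 (46.4%) had one with DMSO and 380 (41.5%) with ACBI-1. Among split regions the shares with DMSO and with ACBI-1 were 53.4 and 37.1% in DND41 and 58.7 and 44.9% in MOLT4. Being gained at 24 h therefore did not mean lacking a peak with vehicle at the earlier time.

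The full 3 h pattern was gained again at few members. In DND41, 19 members had a peak in both ACBI-1 and no DMSO library of 3 h, which is 3.0% of the 634 with any 3 h peak there. Over all regions with a 3 h peak in the line this share was 0.404%. In MOLT4 it was 22 members, or 4.0% of 550, against 0.592% over all regions. Split regions gave 1.01% in DND41 and 2.20% in MOLT4. The opposite pattern, lost at 3 h, was found at 59 DND41 members (9.31%) and 34 MOLT4 members (6.18%), against 11.5% and 13.8% over all regions. More ACBI-1 than DMSO libraries of 3 h had a peak at 136 DND41 members, and fewer at 316. In MOLT4 these numbers were 166 and 217. Among split regions they were 328 and 1127 in DND41 and 346 and 893 in MOLT4.

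**Figure D2:**
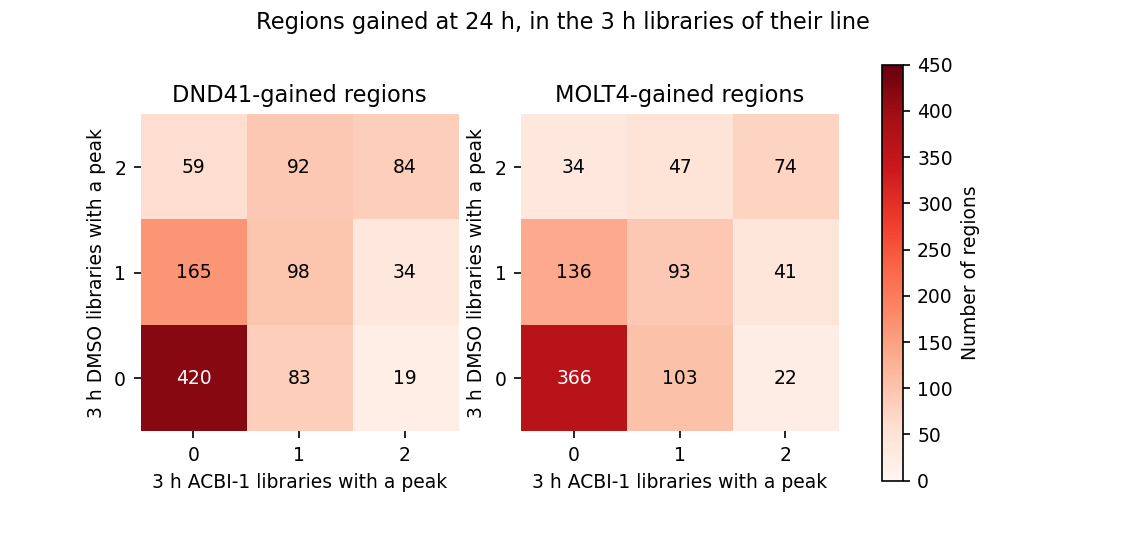
Number of DND41-gained and MOLT4-gained regions (colour and printed count) by how many of the 2 ACBI-1 libraries (x axis) and of the 2 DMSO libraries (y axis) of the same line had a peak at 3 h. The largest cell of each grid is the one with no 3 h peak, with 420 and 366 regions, and 19 and 22 regions have both ACBI-1 and no DMSO library.

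Each line's gained set was then scored in the 12 libraries that had not chosen it. DND41-gained regions had a peak in 43.2 and 29.6% of cases in the DND41 DMSO libraries of 3 h, and in 20.7 and 31.2% in the ACBI-1 libraries. In MOLT4 at 3 h the DMSO values were 26.1 and 20.1% and the ACBI-1 values 19.2 and 22.8%. At both of these the arms overlapped. In MOLT4 at 24 h the DMSO values were 18.98 and 18.3% and both ACBI-1 values were higher, at 27.8 and 23.8%.

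Over the 3 comparisons, DND41-gained regions had a peak in 24.2 ± 4.52% of cases with ACBI-1 and 26.0 ± 9.50% with DMSO (SD, n = 6 each). The difference of -1.80 percentage points was not larger than the spread between libraries (two-sided exact permutation p = 0.685, adjusted over 5 tests 0.856), and ACBI-1 was higher in 6 of 12 pairs of libraries. This result depended on how lists of unequal length were treated. The DMSO lists were longer, at 39117 to 46712 peaks, than the ACBI-1 lists, at 26145 to 33870. With each list limited to its 26145 widest peaks, which also chooses the members anew, the difference was 19.7 points (exact permutation p = 0.00926, the smallest the design can give). That cut drops the narrowest peaks, and more of them from every DMSO list than from any ACBI-1 list. Median peaks at members were below the list median in 12 of 12 scored libraries. The cut can thus itself lower their DMSO share and cannot settle the direction. With only peaks of at least 200 bp the difference was 4.28 points (exact permutation p = 0.241), and without DND41 DMSO replicate 1 of 3 h 0.475 points. The direction of the DND41 value was thus not settled.

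MOLT4-gained regions were scored in the same way. At 3 h in MOLT4 they had a peak in 32.1 and 31.2% of cases with DMSO and in 27.9 and 28.5% with ACBI-1, lower in both ACBI-1 libraries. In DND41 at 3 h the values were 43.1 and 27.9% with DMSO and 23.03 and 32.1% with ACBI-1, and overlapped. At 24 h in DND41 they were 37.4 and 36.2% with DMSO and 40.2 and 39.5% with ACBI-1, higher in both ACBI-1 libraries. The means were 31.9 ± 6.82% with ACBI-1 and 34.7 ± 5.39% with DMSO (SD, n = 6 each), and the difference of -2.80 points did not exceed the spread (two-sided exact permutation p = 0.472, adjusted 0.787), with ACBI-1 higher in 5 of 12 pairs. With lists of equal length, a cut with the limit given above, it was 18.1 points (exact permutation p = 0.00926). With peaks of at least 200 bp it was 2.59 points (exact permutation p = 0.417).

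Against split regions, which were called equally often in the 24 h libraries of the line, gained regions leaned relatively towards ACBI-1 in these other libraries. The rule gave split regions a 24 h DMSO peak and gained regions none. A lasting difference between sites in being called with DMSO thus favours this contrast in advance. The contrast cannot show a rise with ACBI-1, and the gained share itself differed by -1.80 points in DND41 and -2.80 points in MOLT4. The share of gained minus the share of split DND41 regions with a peak was 1.57 ± 1.11 points in ACBI-1 libraries and -3.50 ± 1.47 points in DMSO libraries (SD, n = 6 each). The difference of 5.07 points was larger than the spread (two-sided exact permutation p = 0.00926, the smallest possible, adjusted 0.0231) and was seen in 12 of 12 pairs. In MOLT4 the same values were 1.07 ± 2.94 and -6.87 ± 4.89 points (SD, n = 6 each), a difference of 7.93 points (exact permutation p = 0.00926, adjusted 0.0231), again in 12 of 12 pairs. With the DND41 set defined by a single 24 h ACBI-1 library, the DND41 difference was 4.14 points without replicate 1 (exact permutation p = 0.333) and 4.41 points without replicate 2 (exact permutation p = 0.287). Gained regions then needed a peak in 1 library and split regions in 2, so they were no longer called equally often. With lists of equal length the differences were 11.9 points in DND41 and 16.1 points in MOLT4. Leaving out 24 h DMSO replicate 1 of the line gave 15.2 points in DND41 and 15.6 points in MOLT4, and leaving out replicate 2 gave 15.05 and 13.98 points. In these runs split regions needed a peak in the only 24 h DMSO library left and in 1 of 2 ACBI-1 libraries. They then took in regions called in both DMSO libraries, so these values cannot be set beside the main ones. In the same line at 3 h, ACBI-1 minus DMSO was -16.3 points in DND41 and -15.3 points in MOLT4 for split regions. For gained regions it was -10.4 and -3.44 points.

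**Figure D3:**
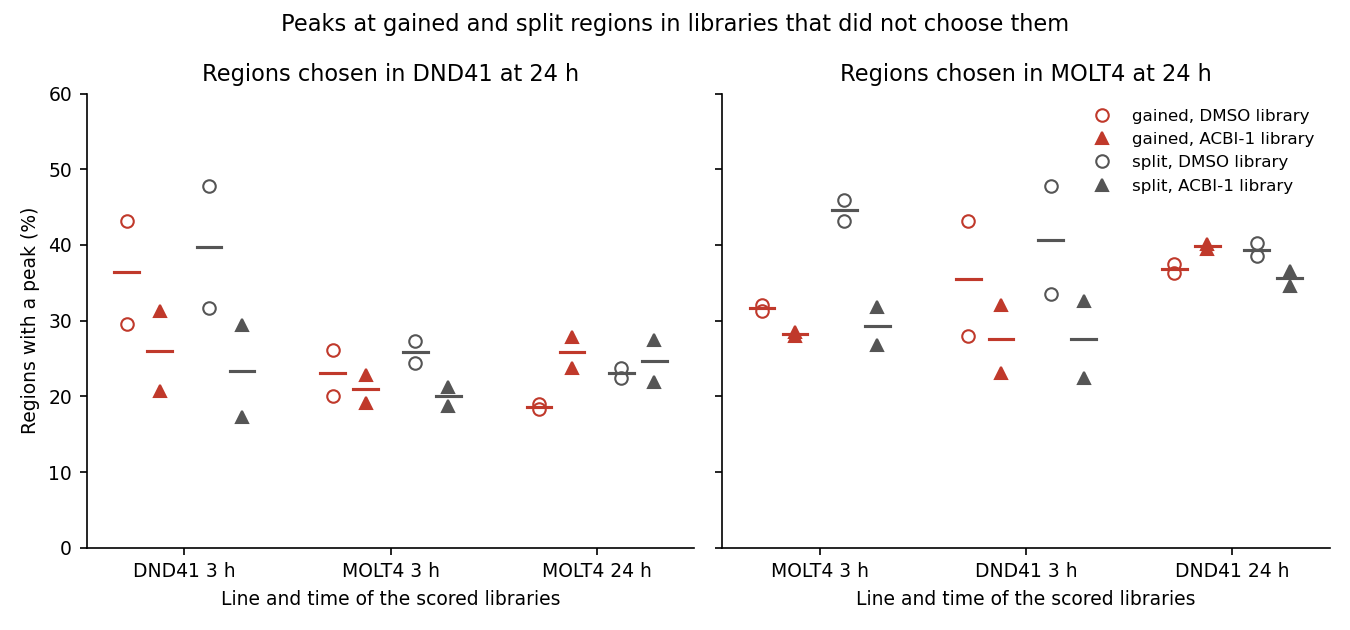
Percent of gained (red) and split (grey) regions with a peak (y axis) in each library that took no part in choosing them, by line and time (x axis); each symbol is 1 library, open circles DMSO and filled triangles ACBI-1, and bars are means of 2. At 24 h in the other line both ACBI-1 libraries lie above both DMSO libraries for gained regions, at 23.8 and 27.8% against 18.3 and 18.98% for the DND41 set.

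In the other line at 24 h, ACBI-1 minus DMSO was 7.16 points for DND41-gained regions scored in MOLT4 and 3.0 points for MOLT4-gained regions scored in DND41. At 3 h in the other line it was -2.13 and -7.97 points. The mean difference between times, 10.1 points, was not larger than the spread in a test chosen after these values were seen, with time labels exchanged within line and arm (two-sided exact permutation p = 0.0741, adjusted over 3 such tests 0.125). With lists of equal length it was 11.2 points (exact permutation p = 0.00926). For gained minus split regions the difference between times was 1.78 points (exact permutation p = 0.298).

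Few regions were gained in both lines. The 37 shared regions were 3.51% of the DND41 set and 4.04% of the MOLT4 set. Of the 492 DND41-gained regions with any 24 h peak in MOLT4 they were 7.52%, against 1.47% of all regions with such a peak and 6.33% of the split ones. Of the 594 MOLT4-gained regions with any 24 h peak in DND41 they were 6.23%, against 1.37% of all regions and 4.69% of the split ones. The share gained in the other line was thus near that of split regions. Of lost regions with a 24 h peak in the other line, 0.487% of the DND41 set and 0.279% of the MOLT4 set were gained there. Among DND41-gained regions, 562 (53.3%) had no 24 h peak in MOLT4, 58 (5.50%) were kept there and 13 (1.23%) were lost there. Split DND41 regions gave 54.3, 7.13 and 3.02%. Among MOLT4-gained regions, 322 (35.2%) had no 24 h peak in DND41, 134 (14.6%) were kept and 23 (2.51%) were lost. Split MOLT4 regions gave 36.8, 14.6 and 5.31%. At 3 h, 28 of the 37 shared regions had a peak in at least 1 DMSO library, and 4 had no 3 h peak in either line. More ACBI-1 than DMSO libraries of 3 h had a peak at 7 of the 37, and fewer at 15.

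Over all 8 DMSO libraries, 644 of the 1933 members (33.3%) had no peak in any, and 382 (19.8%) had one in at least 4. Members found in just the 2 libraries that chose them numbered 438 (22.7%). By line, 25.6% of DND41-gained and 18.3% of MOLT4-gained regions had no peak in the 12 libraries that did not choose the set. Split regions gave 24.2 and 12.5%. In the libraries that did not choose the set, more DMSO than ACBI-1 libraries had a peak at 334 DND41-gained regions, and fewer at 279. In MOLT4 these numbers were 315 and 228. Among split regions they were 1249 and 624 in DND41 and 1234 and 482 in MOLT4. The rule itself gives each member 2 ACBI-1 peaks and no peak in 2 DMSO libraries. A peak in at least 4 ACBI-1 and in no DMSO library of the series was seen at 63 members. A peak in at least 6 ACBI-1 and in no DMSO library was seen at 5. These 5, picked out after their values were seen, were chr5:45225536-45226059, chr6:121675865-121676114, chr9:100836580-100837313, chr11:118166439-118167210 and chr21:10085043-10086132 (hg19, counted from 1).

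The region on chromosome 21 was the 1 member with a peak in every ACBI-1 library and in no DMSO library. Its ACBI-1 peaks in DND41 were 301 and 211 bp at 3 h and 192 and 513 bp at 24 h. In MOLT4 they were 168 and 423 bp at 3 h and 332 and 794 bp at 24 h. In both lines the 3 h and 24 h widths overlapped. It lies between 2 stretches without a peak in any library, one ending at 9421371 and one starting at 11186824, and is 53.3 kb from the nearest region kept in DND41 and 175 kb from the nearest kept in MOLT4.

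The region on chromosome 9 had 24 h ACBI-1 peaks of 702 and 480 bp in DND41 and 465 and 199 bp in MOLT4, and 3 h ACBI-1 peaks of 229 bp in DND41 and 153 bp in MOLT4, each in 1 of 2 libraries. It was 17.1 kb from the nearest kept region in both lines. The region on chromosome 11 had 24 h ACBI-1 peaks of 220 and 310 bp in DND41 and 235 and 422 bp in MOLT4. At 3 h it had peaks of 158 and 200 bp with ACBI-1 in MOLT4 and none in DND41. It was the closest of these to kept chromatin, at 7.87 kb in both lines.

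The ranking of the 37 shared regions by 3 h ACBI-1 minus 3 h DMSO libraries put the chromosome 21 region first. The chromosome 9 and 11 regions shared the next value with the one on chromosome 4 from 157479288 to 157480187, which had peaks in 7 ACBI-1 libraries and in 1 DMSO library, of 596 and 197 bp in DND41 and 374 and 225 bp in MOLT4 at 24 h. Regions gained in both lines have no 24 h DMSO peak by rule, and this ranking favoured few DMSO peaks at 3 h. Of all 37 shared regions, 28 had a peak in at least 1 DMSO library of 3 h. Of the 10 regions named by the ranking, 7 had no DMSO peak at all, as this choice favours, and 2 had no 3 h peak in either arm. Those 2 were on chromosome 3 from 172313672 to 172314314, with 24 h ACBI-1 peaks of 450 and 504 bp in DND41 and 420 and 301 bp in MOLT4, and on chromosome 16 from 85686336 to 85686779, with 361 and 287 bp and 435 and 271 bp. These 2 were called with ACBI-1 at 24 h in both lines and in no other library. The others were chr6:130072927-130073464, with 1 DMSO peak, and chr17:38511219-38511674 and chr1:170936187-170936647, with none. The last of the 10, on chromosome 8 from 81904072 to 81904597, had 3 DMSO peaks at 3 h.

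Members gained in 1 line could still be seen with ACBI-1 in the other. The region on chromosome 1 from 201330603 to 201331167, gained in DND41, had 24 h ACBI-1 peaks of 272 and 385 bp there. It also had 206 and 281 bp in MOLT4, where 1 DMSO library had a peak of 218 bp and so kept it out of the MOLT4 set. On chromosome 1 from 69284950 to 69285349, the DND41 peaks were 358 and 259 bp at 24 h and 261 and 292 bp at 3 h with ACBI-1, and the 1 DMSO peak, of 143 bp, was in MOLT4 at 3 h. On chromosome 12 from 3384549 to 3385037, gained in MOLT4 with 298 and 283 bp, DND41 had 225 and 288 bp with ACBI-1 and 191 bp in 1 DMSO library at 24 h. Each of these 3 regions had a peak in 7 of the 8 ACBI-1 libraries and in 1 of the 8 DMSO libraries. They were picked for the most ACBI-1 minus DMSO libraries among the 12 that did not choose the set. These counts therefore follow from the choice and do not describe members in general.

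The 3 members of each line with the widest mean peak over its 24 h ACBI-1 libraries differed in how often they were called elsewhere. Single peaks reached 891 bp in DND41 and 916 bp in MOLT4, at members not named here. In DND41 the widest by this mean was on chromosome 6 from 20126785 to 20127847, with 24 h ACBI-1 peaks of 741 and 728 bp. It also had 3 h peaks of 357 and 135 bp with DMSO and 235 and 520 bp with ACBI-1 in that line. On chromosome 8 from 110966023 to 110967015 the 24 h ACBI-1 peaks were 712 and 556 bp, and 4 DMSO libraries of other conditions had a peak. On chromosome 2 from 57112555 to 57113403 they were 849 and 399 bp, with no DMSO peak in any library. In MOLT4 the widest by the mean was on chromosome 1 from 86046382 to 86047203, with 748 and 699 bp, and 290 and 146 bp with DMSO at 3 h. On chromosome 22 from 29075400 to 29076080 the peaks of 536 and 681 bp were the only ones in the series, and on chromosome 9 from 124861441 to 124862151, with 711 and 457 bp, 4 DMSO libraries of other conditions had a peak. Of these 6, then, 2 had no DMSO peak in the series.

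Gained regions lay farther from kept chromatin in DND41 than in MOLT4. The median distance to the nearest kept region of the line was 77.8 kb in DND41 (quartiles 22.7 and 240 kb) and 38.4 kb in MOLT4 (14.0 and 127 kb). Within 1 kb of a kept region lay 32 DND41 members (3.04%) and 29 MOLT4 members (3.17%). For split regions these shares were 2.65 and 3.57%, and for lost regions 2.96 and 2.97%. Split regions had medians of 71.8 and 43.4 kb, and lost regions of 40.1 and 41.2 kb. In DND41, gained and split regions both lay farther out than lost ones, and 44.1% of the gained, 43.1% of the split and 26.6% of the lost regions were over 100 kb from a kept region. In MOLT4 these shares were 29.0, 31.8 and 28.3%. A 24 h DMSO peak of the same line lay within 1 kb of 117 DND41 members (11.1%) and 78 MOLT4 members (8.52%). Split regions gave 9.03 and 11.6%, lost regions 8.64 and 9.52%, each counted against another region, and kept regions 7.89 and 9.17%.

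**Figure D4:**
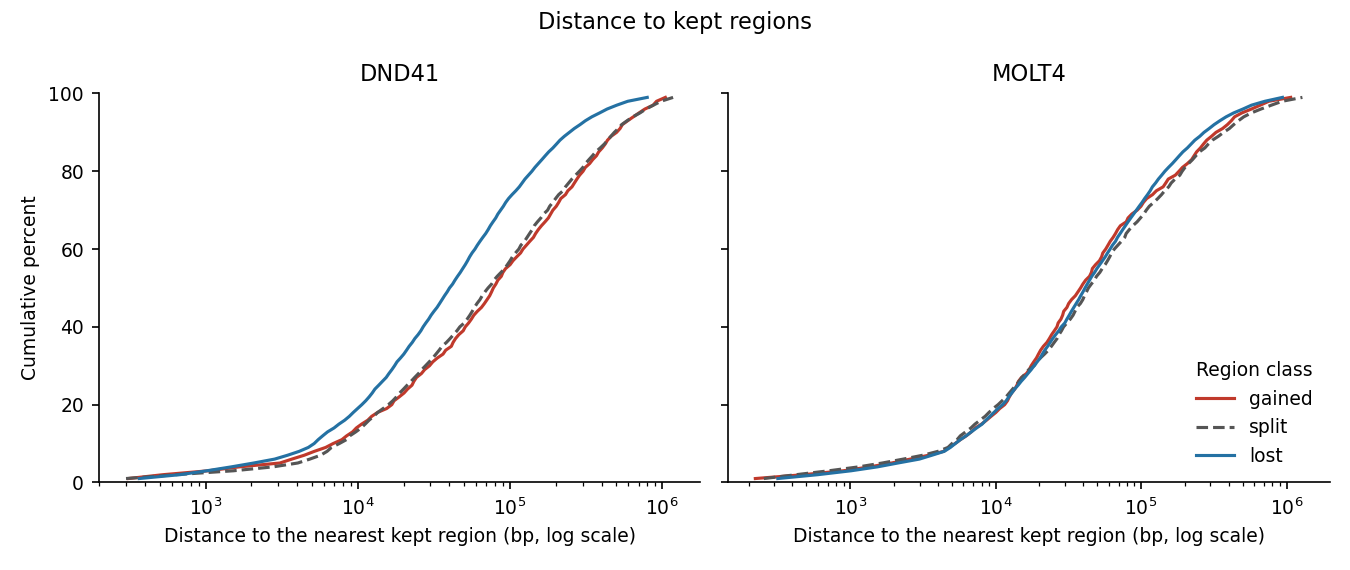
Cumulative percent of gained, split and lost regions (y axis) by distance in bp to the nearest region kept in the same line at 24 h (x axis, log scale), from the 1st to the 99th percentile. In DND41 the gained curve follows the split curve, with medians of 77.8 and 71.8 kb, to the right of the lost curve at 40.1 kb; in MOLT4 the 3 curves lie close together.

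Both lines gained regions on every chromosome, and their shares differed on some. Chromosome 19, the most gene-dense chromosome, held 4 of the 1054 DND41 members (0.38%) and 45 of the 916 MOLT4 members (4.91%). Chromosome 17, also gene-dense, held 10 (0.949%) and 52 (5.68%). Chromosome 22 held 6 (0.569%) and 20 (2.18%). The reverse was seen on larger chromosomes: chromosome 2 held 110 DND41 members (10.4%) and 56 MOLT4 members (6.11%), and chromosome 3 held 108 (10.2%) and 52 (5.68%). Chromosome 13, a gene-poor one, held 53 (5.03%) and 22 (2.40%). Of all regions, chromosomes 19, 17, 22, 2, 3 and 13 held 1.76, 2.34, 0.873, 9.74, 7.86 and 4.13%, in this order.

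Split regions leaned the same way in DND41 and MOLT4 on chromosomes 17 (1.43 and 4.34%) and 22 (0.529 and 1.26%). They also did so on chromosomes 2 (10.6 and 8.52%), 3 (8.84 and 6.24%) and 13 (4.08 and 2.68%). Split regions leaned the same way but less on chromosome 19, which held 1.25% of the split regions in DND41 and 2.55% in MOLT4. Of the kept regions it held 5.13 and 5.75%, and of the lost 1.72 and 1.55%. The lines' difference on chromosome 19 was therefore a feature of gained and split regions and was small among kept and lost ones. The 45 MOLT4 members on chromosome 19 had a peak in 4 and 8 cases in the 3 h DMSO libraries of MOLT4 and in 6 and 8 cases in the ACBI-1 libraries. In DND41 at 24 h they had 8 and 13 with DMSO and 5 and 5 with ACBI-1, lower in both ACBI-1 libraries. In neither were both ACBI-1 libraries above both DMSO libraries. These chromosomes were picked after the shares were seen, and no test was made over regions.

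**Figure D5:**
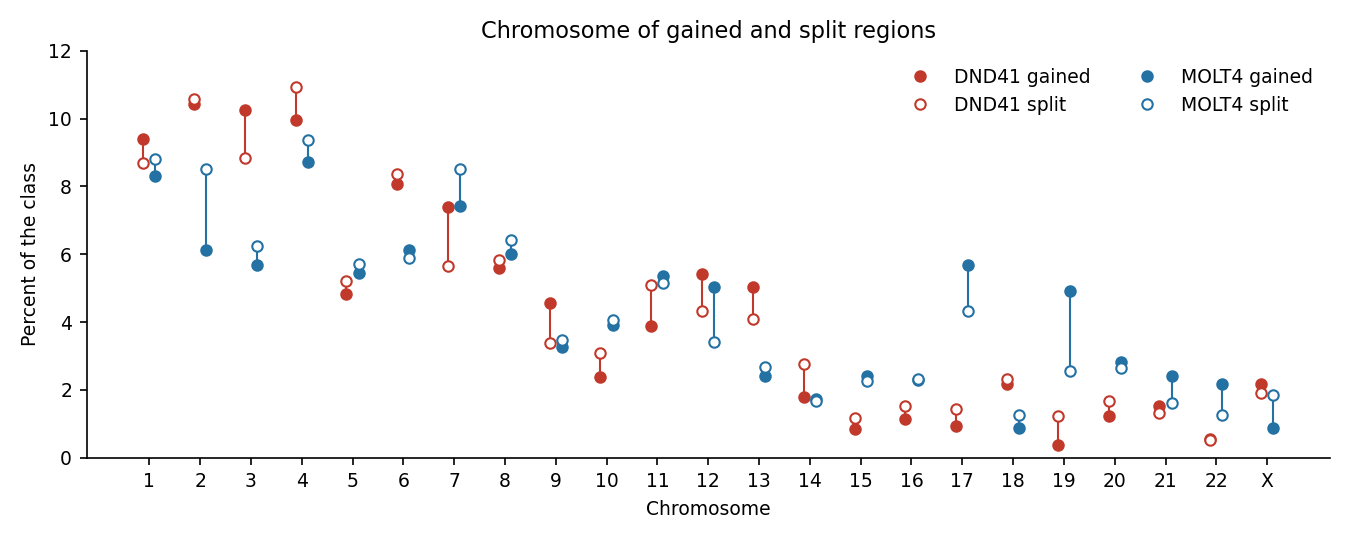
Percent of each class (y axis) on each chromosome (x axis), with filled points for gained and open points for split regions, red for DND41 and blue for MOLT4, and a line joining the 2 classes of a line. MOLT4-gained regions stand highest above DND41-gained ones on chromosomes 17 (5.68 against 0.949%) and 19 (4.91 against 0.38%).

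Few members lay beside the centromeres, with a larger share in MOLT4 than in DND41. Sequence there is rich in satellite and duplicated repeats, in which short reads are hard to place. Windows of 2 Mb were laid beside every stretch of at least 2 Mb without a peak in any library; the 26 such stretches take in the unsequenced centromeres and acrocentric short arms, and also the start of X, where no member lay. The windows held 56 members, or 2.90% (95% Wilson interval 2.24 to 3.74%, counting error only), against 2.40% of all regions. By line the shares were 2.47% in DND41 and 3.82% in MOLT4. Split regions gave 2.37 and 3.04%, and lost regions 2.40 and 1.69%. With windows of 1 Mb the gained shares were 1.33 and 1.75%, against 1.17% of all regions. Split regions then gave 1.40 and 1.42%, and lost regions 1.16 and 0.692%. The 2 Mb windows of chromosomes 20 and 21 held 8 members each, of 254 and 293 regions, those of chromosome 9 held 6 of 118, and those of chromosome 15 held 4 of 61, all gained in MOLT4. Of the 37 regions gained in both lines 5 (13.5%, 95% Wilson interval 5.91 to 28.0%) were in windows.

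The share of all peaks that lay in these windows was tested at 3 h, since 24 h libraries had chosen the members. It was 2.37 ± 0.106% with ACBI-1 and 2.34 ± 0.149% with DMSO (SD, n = 4 each), and the difference of 0.0238 points did not exceed the spread (two-sided exact permutation p = 0.944, adjusted 0.944). The smallest p this design allows is 0.0556, which windows of 5 Mb gave for a difference of 0.137 points (exact permutation p adjusted over the 5 tests 0.0926). At 24 h, as a description, MOLT4 had 2.41 ± 0.024% with ACBI-1 and 2.12 ± 0.0612% with DMSO (SD, n = 2 each), whereas DND41 had 2.31 ± 0.0438% and 2.39 ± 0.0304%. The lines thus went in opposite directions at 24 h.

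Clusters are given for members alone, so their number has no reference among other classes. A cluster was 3 or more members each at most 50 kb from the next. By this measure 19 of the 1933 members lay in 6 clusters. The largest had 4 members, on chromosome 16 from 85427224 to 85525144, of which 2 were gained in DND41 and 2 in MOLT4. It held 18 regions in all, and none of its 4 members had a peak in a MOLT4 library of 3 h. The 1 cluster beside a centromere was on chromosome 2 from 92291396 to 92319244, where MOLT4 gained 3 of the 7 regions. In DND41 at 24 h, each of the 4 libraries had a peak at 1 of these 3. MOLT4 also gained 3 of 7 regions on chromosome 19 from 1062830 to 1082794, and none of these 3 had a peak in any 3 h library. On chromosome 4, DND41 gained all 3 members from 33035413 to 33091998, and from 64128219 to 64189181 it gained 2 and MOLT4 gained 1. On chromosome 6 from 131164666 to 131207083, DND41 gained 2 and MOLT4 gained 1, and all 3 had a peak in 1 DND41 DMSO library of 3 h.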

How the data were processed

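The deposited files were peak lists of single libraries with 4 columns (chromosome, start, end and peak name). The authors deposited positions only, in hg19 per the submitters' processing notes, which name MACS2 2.1.1.2016030, SAMtools, Picard and Bowtie2 without roles or settings. The sources used here do not state the calling threshold. Peaks on chromosomes 1 to 22 and X that shared at least 1 base were merged (Python 3.11.15, numpy 2.4.6, pandas 2.3.3), without a filter for repeats. No sequence of hg19 was used here. Groups came from the titles.

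Tests compared percentages per library with two-sided exact permutation tests that exchanged treatment labels only within each line and time, giving 216 exchanges for a gained set and 36 for the 3 h window share, with Benjamini-Hochberg adjustment over 5 tests at a threshold of 0.05. Merging, classes and tests were tested on simulated lists. Named regions were the 10 of those gained in both lines with most 3 h ACBI-1 minus DMSO libraries, for each line the 5 with most ACBI-1 minus DMSO libraries among the other 12 and the 3 with the widest mean peak in its 24 h ACBI-1 libraries, and the 6 largest clusters. Members, classes and rules were chosen with earlier results of these data known. Depth is unknown. Alternatives were minimum width, equal list length, wider merging, distance to DMSO peaks, absence at 3 h, window and gap sizes, single libraries left out and a replicate block.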

Additional observations from a re-analysis of the deposited data

Results flagged for a closer look

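MOLT4-gained regions moved in opposite directions in 2 sets of libraries that had not chosen them, with no overlap between arms in either. In DND41 at 24 h both ACBI-1 libraries were higher, with a difference of 3.0 percentage points from DMSO. The difference was -3.44 points in MOLT4 at 3 h, where both ACBI-1 libraries were lower. Split MOLT4 regions differed by -3.81 points in DND41 at 24 h and by -15.3 points in MOLT4 at 3 h. Kept ones differed by -5.41 and -3.41 points. Gained minus split regions thus went the same way in both, at 6.81 and 11.8 points. The 2 sets of libraries differ in line and in time, and the difference between them was not tested. With 2 libraries an arm, no overlap is the strongest separation possible and has an exact permutation p of 0.333.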

How the results depend on the processing

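Gained minus split regions kept its direction under every alternative run. Its adjusted p passed the threshold except in DND41 without either 24 h ACBI-1 library, and in both lines with a replicate block. Runs without a 24 h library of the line changed what gained and split mean, so they did not repeat the same contrast. With peaks of at least 200 bp the ACBI-1 minus DMSO share became 4.28 points for DND41-gained and 2.59 for MOLT4-gained regions, the 3 h window share -0.0185 points, and 1 cluster was left. With lists of equal length, 1829 DND41 and 1769 MOLT4 regions were gained, 230 in both lines, with shares of 19.7 and 18.1 points, gained minus split of 11.9 and 16.1 points, a time difference of 11.2 points and 22 clusters. This cut drops more narrow peaks from DMSO than from ACBI-1 lists, so its shares cannot settle a direction. Requiring no 3 h DMSO peak left 522 and 491 regions, 9 in both lines, a median of 50.2 kb to kept regions and 3 clusters. Windows of 1 and 5 Mb held 1.40 and 6.83% of members, distance to regions kept in all 16 libraries was 94.97 kb against 55.7 kb over both lines, and gaps of 20 and 100 kb gave 1 and 14 clusters. The cause was not tested.

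Leaving out single libraries gave 1050 to 9961 DND41-gained, 913 to 10261 MOLT4-gained and 36 to 135 shared regions, the highest where 1 ACBI-1 library of 24 h alone set the rule. Shares ran from -4.11 points to 0.475 in DND41 and from -5.64 to -0.237 in MOLT4, gained minus split from 4.14 to 15.2 and from 7.10 to 15.6, the time difference from 5.63 to 13.9, and the 3 h window share from -0.0178 to 0.0681. The 4.14, 15.2 and 15.6 points came from runs without a 24 h library of the same line, with gained and split regions redefined. The time difference passed the threshold, unadjusted, without DND41 DMSO replicate 2 or MOLT4 DMSO replicate 2 of 3 h (13.9 and 11.7 points), and without MOLT4 ACBI-1 replicate 1 or 2 of 24 h (5.63 and 7.76 points). Distance ran from 46.2 to 106 kb, members in windows from 2.32 to 3.06%, and clusters from 6 to 724. Same-numbered libraries did not deviate together (correlations from -0.0189 to 1.82e-05). With a replicate block, gained minus split stayed at 5.07 and 7.93 points, but p could not go below 0.03125 (exact permutation), which 2 of 5 tests reached, so the adjusted p was 0.0781 in both lines and the calls were lost. No other call changed with the block. The share tests were not run for the 3 h DMSO requirement, nor the window test where it does not depend on the setting. Unknown depth limits every absence.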

Other observations

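Where gained regions had a peak in a library that did not choose them, the median peak was narrow too. Split regions were not measured in this way, so narrow peaks there are not shown to be particular to gained regions. For DND41-gained regions the median width was 180 to 280 bp over 12 libraries, below the median of the whole list in 12 of 12, and for MOLT4-gained regions it was 201.5 to 305 bp, again below in 12 of 12. List medians ran from 282 to 443 bp and from 282 to 377 bp. At DND41-gained regions in MOLT4 at 24 h the medians were 267 and 262 bp with DMSO and 280 and 276 bp with ACBI-1.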
